A study of Mus musculus with 12 samples.

Results

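Cholesterol synthesis and sterol handling were followed here through 29 genes, chosen by name for their known roles, with earlier results of these data known. All 29 were among the 16414 genes of the count table, and all 29 were among the 11703 genes with enough counts to be tested. They comprised 19 synthesis enzymes, 4 genes of the SREBP2 system that controls those enzymes, and 6 genes of sterol transport, export and esterification. The cells were 3T3-L1, a clonal mouse fibroblast line that turns into adipocytes after hormonal induction. They were transfected as fibroblasts for 48 h, with a mimic of miR-335-5p at 20 nM or with a scrambled non-targeting control (NT mimic) whose dose is not given, and all 4 groups were then induced with insulin, the phosphodiesterase inhibitor IBMX, rosiglitazone and dexamethasone. After day 3 the medium held insulin alone and finally serum with no added hormone. RNA was sequenced on days 3 and 6 of the differentiation, with 3 libraries, numbered 1 to 3, for each mimic and day. The labels call the day 3 cells preadipocytes and the day 6 cells adipocytes. They do not say whether the 3 libraries of a group came from separate cultures, so every p-value rests on the spread among libraries that may be only technical repeats.

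Cholesterol is built from acetyl-CoA through mevalonate, isoprenoid diphosphates, squalene and lanosterol. Transcription of nearly all of these enzymes is driven by SREBP2, which SCAP carries out of the endoplasmic reticulum when sterols are scarce and which the INSIG proteins hold back when sterols are plentiful. Excess sterol is esterified by SOAT1 or leaves the cell through ABCA1 and ABCG1, whose genes are switched on by the oxysterol-sensing LXR receptors. In adipocytes much of the free cholesterol sits in the lipid droplet and its surface, and adipose tissue is one of the large cholesterol stores of the body.

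SREBP2 binds sterol regulatory elements, usually next to boxes for the factor NF-Y, so both were looked up in the promoters of the members. The windows ran from 250 bases before to 50 bases after the start of each gene in RefSeq's annotation of GRCm38.p6, whereas the counts rest on build mm39. Of the 29 members, 23 had a window. The sterol regulatory element TCACCCCAC, searched on both strands, was found in 1 of them, Hmgcs1, and in 0.614% of 27025 genes with a window. The NF-Y box CCAAT, also searched on both strands, was found in at least 1 window of 20 of the 23 members (87%) and in 41.1% of all genes. Among the synthesis enzymes it stood in 15 of 16, and Acat2 was the exception. The direct repeat of AGGTCA spaced by 4 bases, to which LXR binds, was found in none of the 23 and in 4 of all genes. These are matches of letters in short windows and say nothing about binding. The shares over all genes also count genes that were not tested here, whereas every member was tested, so the bases are unlike. The whole Hmgcs1 window (chr13:119690101-119690400, plus strand) is printed because it alone carried both kinds of site, the sterol element starting at -137, with the start of the gene counted as 0. Capitals mark the sterol element and the 4 NF-Y boxes, all of which read ATTGG on this strand.
Hmgcs1: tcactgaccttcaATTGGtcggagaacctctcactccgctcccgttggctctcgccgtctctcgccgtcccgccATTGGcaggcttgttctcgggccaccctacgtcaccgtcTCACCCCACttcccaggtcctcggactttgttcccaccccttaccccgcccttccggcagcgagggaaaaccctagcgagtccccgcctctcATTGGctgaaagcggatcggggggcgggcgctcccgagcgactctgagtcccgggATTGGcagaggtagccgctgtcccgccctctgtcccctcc

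The NF-Y boxes of 7 further members are printed because the counts of these genes are described below, 6 as genes that changed between the days and Insig1 as a gene that SREBP2 itself induces. Each stretch holds 1 box in capitals with 25 bases on either side, on the strand of the gene and in 5′ to 3′ direction, and the coordinates are those of the 300-base window. The Insig2 window held 3 boxes and the Npc2 window 2, of which 1 each is shown. A further window of Pmvk and 2 of Insig2 held none.
Pmvk (chr3:89454291-89454590, plus strand, box at -136): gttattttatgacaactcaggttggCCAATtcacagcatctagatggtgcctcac
Cyp51 (chr5:4104648-4104947, minus strand, box at -29): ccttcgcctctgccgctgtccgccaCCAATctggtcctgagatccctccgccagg
Tm7sf2 (chr19:6067801-6068100, minus strand, box at -47): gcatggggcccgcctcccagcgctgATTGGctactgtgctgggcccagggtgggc
Sc5d (chr9:42264251-42264550, minus strand, box at -24): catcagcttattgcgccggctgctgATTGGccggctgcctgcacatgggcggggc
Insig1 (chr5:28071162-28071461, plus strand, box at -216): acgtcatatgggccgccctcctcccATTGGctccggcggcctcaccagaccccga
Insig2 (chr1:121332540-121332839, minus strand, box at -136): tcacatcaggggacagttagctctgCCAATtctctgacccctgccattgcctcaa
Npc2 (chr12:84773063-84773362, minus strand, box at -75): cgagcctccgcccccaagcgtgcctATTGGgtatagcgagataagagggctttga
The box stood in windows of members that rose and of members that fell between the days. Abca1, which rose, had 1 window and no box in it, and Acat2 and Scap also had none.

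The mature sequence of the transfected microRNA is shown because its seed sets which transcripts it can pair with. RefSeq places it at chr6:30741314-30741336 on the plus strand of GRCm38.p6, and the seed (bases 2 to 8) is in capitals.
miR-335-5p: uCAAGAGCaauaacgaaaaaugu
Matches to the seed, GCTCTTG or CTCTTGA, were sought in the 3′ UTR of a gene's transcripts, taking the longest that GENCODE's annotation of GRCm38 gives. They were found in 7 of the 29 members (24.1%) and in 22.7% of 11462 tested genes with an annotated UTR. The 7 were Ggps1, Mvk, Hsd17b7, Nsdhl, Stard4, Npc2 and Soat1. Ggps1, the synthase of geranylgeranyl diphosphate, and Hsd17b7, a sterol ketoreductase, held the full 8-base match, and their sites are printed with the match in capitals.
Ggps1 site: aggcgaaaggaGCTCTTGAgctctagaggc
Hsd17b7 site: ccatttcctggGCTCTTGAtgaatgtatga
The level of the mimic itself was not read from these counts. Ggps1 differed between the mimics by a log2 value of 0.058 at day 3 and 0.12 at day 6, and Hsd17b7 by 0.12 and 0.059. All 4 values were above 0 and none passed the test, with unadjusted p of 0.724, 0.487, 0.732 and 0.863 in edgeR's quasi-likelihood test. The other members with a match did not all lie above 0. Of 3 pairs of same-numbered libraries, 0 at day 3 and 1 at day 6 were higher with the miR-335-5p mimic for Npc2. These counts were 3 and 3 for Nsdhl, 2 and 2 for Stard4, and 1 and 2 for both Mvk and Soat1.

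Total counts of a library ran from 17.69 to 18.94, in units of 1e+06 counts. The values below are CPM, counts scaled to a library of 1e+06 counts after TMM normalisation, so 1 CPM rests on 16.5 to 20.1 counts. The 29 members together took 0.321% to 0.535% of the counts of a library. Of 8 adipocyte markers, Adipoq, Cfd, Lpl and Slc2a4 rose from day 3 to day 6 under the NT mimic, Adipoq from 116 ± 48.8 to 1677 ± 55.5 CPM (SD, n = 3). Cidec fell (log2 -1.76, adjusted p = 2.47e-05, edgeR), and Fabp4, Pparg and Plin1 were not called (0.084, 0.21 and -0.31), so the markers did not all follow the labels. The summed level of the 8 lay between 8212 and 10874 CPM at day 3 and between 9732 and 13789.6 CPM at day 6, and that of 6 fibroblast markers between 2403.6 and 3531 CPM and between 7672 and 10591.6 CPM. Of 5 macrophage and 4 endothelial markers, Cd68 and Pecam1 had enough counts to be tested. Under the NT mimic Cd68 averaged 0.81 CPM at day 3 and 3.27 CPM at day 6, and Pecam1 0.14 and 0.56 CPM. Neither was called (adjusted p = 0.0568 and 0.0277, edgeR). Adgre1, Ptprc and Kdr were at or near 0, and Csf1r, Lyz2, Cdh5 and Tek had no group mean above 0.322 CPM. Libraries that share a number resembled each other across the groups, so each result that turned on this is given with and without the number as a block.

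The first comparison asked how the pathway differed between day 3 and day 6 of the differentiation. The hormones in the medium changed between these days as well, so effects of medium and of differentiation cannot be told apart. Between day 3 and day 6 under the NT mimic, 7 of the 29 members passed an adjusted p below 0.01, against 35.6% of all genes tested. The sterol reductase Tm7sf2, the desaturase Sc5d and the cholesterol exporter Abca1 rose, and the kinase Pmvk, the demethylase Cyp51, the ER retention protein Insig2 and the lysosomal sterol carrier Npc2 fell. That is 3 members higher, against 18.8% of all genes, and 4 lower, against 16.7%. Under the miR-335-5p mimic 7 members were called again, against 34.7% of all genes. The 4 higher (18.2% of all genes) were Tm7sf2, Sc5d, Abca1 and the exporter Abcg1, and the 3 lower (16.5% of all genes) were Pmvk, Cyp51 and Npc2. Both counts of members called, 24.1% of the list, lay below the background in this test without a block. They lay above it with the block described below. The median log2 change over the 29 members was 0.26 under the NT mimic and 0.24 under the miR-335-5p mimic, and over all genes 0.029 and 0.019. In bulk RNA of a differentiating culture, a change in the share of cells that express a gene and a change in the RNA per cell cannot be told apart.

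**Figure D1:**
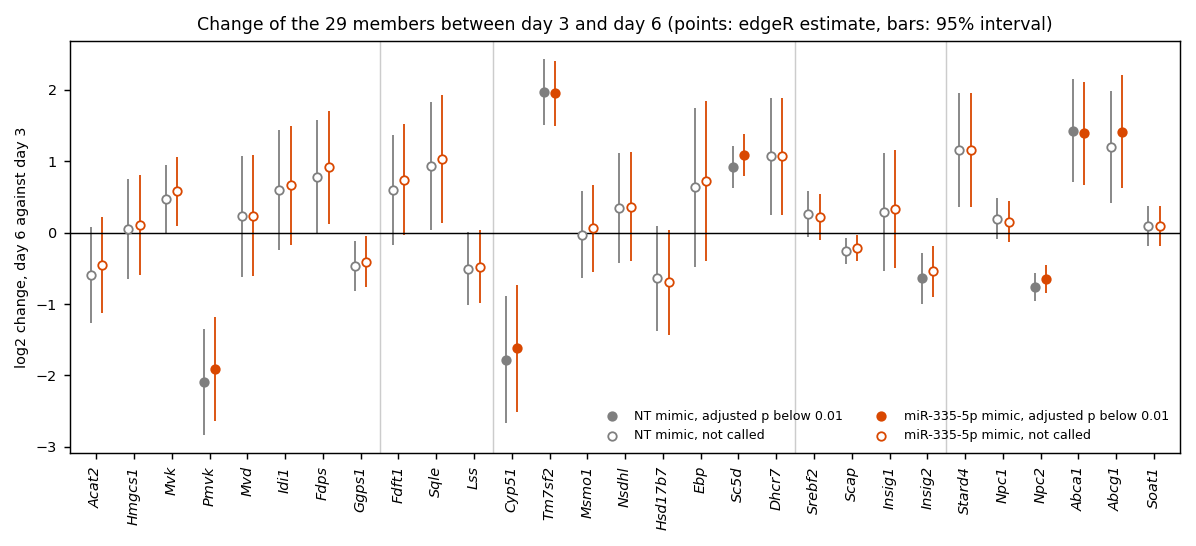
The log2 change from day 3 to day 6 (y axis) of the 29 members (x axis, ordered by role) under the NT mimic (grey) and the miR-335-5p mimic (orange), with 95% intervals and filled points for an adjusted p below 0.01. Called members lie on both sides of 0, from Pmvk at -2.09 to Tm7sf2 at 1.97 under the NT mimic, and the intervals of many uncalled enzymes are wide.

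With the library number as a block, which the pairing of the libraries allows, the counts of members called moved by more than 1.5 times. This block takes the effect of a number to be the same on both days. For some members, such as Pmvk and Idi1, the deviation of number 1 was not the same on both days, as given below. Under the NT mimic 19 of 29 members were then called, 11 higher and 8 lower, where all genes stood at 51.9% called, 27.5% higher and 24.3% lower. Under the miR-335-5p mimic 20 were called, 12 higher and 8 lower, where all genes stood at 51.6%, 27.0% and 24.7%. Both counts of members called thus lay above the background with the block, and below it without. The enzymes gained with the block under both mimics were Fdps, Fdft1, Sqle, Ebp and Dhcr7 among those that rose and Acat2, Ggps1 and Lss among those that fell. Without the 4 libraries of number 1, an alternative chosen after seeing the data, 13 and 12 members were called. Over all genes this fit called 4994 and 5001 of 11705. Leaving out 1 library at a time gave 4 to 7 members called under the NT mimic and 4 to 6 under the miR-335-5p mimic. Over all genes it gave 3135 to 3877 and 3077 to 3951 calls. The lowest count of members, 4, came without day 6 NT mimic library 2, without day 3 miR-335-5p mimic library 2 and without day 6 miR-335-5p mimic library 2.

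The mevalonate branch had 8 members, of which 1 was called. Pmvk, phosphomevalonate kinase, was the member with the largest fall. At day 3 Pmvk stood at 89.3, 170.3 and 133 CPM with the NT mimic and at 96.6, 152 and 131 CPM with the miR-335-5p mimic. By day 6 its values were 42.6, 27.3 and 21.9 CPM with the NT mimic and 48.8, 27.7 and 24.6 CPM with the miR-335-5p mimic. The highest day 6 library lay below the lowest day 3 library. The fall was 4.27-fold under the NT mimic (log2 -2.09 ± 0.34, SE, adjusted p = 4.02e-04, edgeR) and 3.75-fold under the miR-335-5p mimic (adjusted p = 7.15e-04, edgeR). Pmvk was called in every alternative run, those leaving out a library included. The order of the libraries turned between the days, since number 1 was the lowest of its group at day 3 and the highest at day 6 under both mimics.

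Hmgcs1, the HMG-CoA synthase that carries the sterol element, did not pass. At day 3 Hmgcs1 stood at 366, 294 and 258 CPM with the NT mimic and at 378, 321 and 280.2 CPM with the miR-335-5p mimic. Hmgcs1 had 483, 257 and 214 CPM at day 6 with the NT mimic and 514, 289 and 249.7 CPM with the miR-335-5p mimic. The day 6 libraries of number 1 lay above every day 3 library and those of number 3 below all of them, so the days overlapped. The log2 change was 0.055 ± 0.32 (SE, adjusted p = 0.899, edgeR) under the NT mimic and 0.11 ± 0.32 under the miR-335-5p mimic, and it stood at -0.016 and 0.039 with the replicate block. Of the other members of this branch, Fdps (farnesyl diphosphate synthase) had log2 values of 0.78 and 0.92, Idi1 (isopentenyl diphosphate isomerase) of 0.60 and 0.66, and Mvk (mevalonate kinase) of 0.47 and 0.58, in the order NT mimic, miR-335-5p mimic. Mvd, the mevalonate diphosphate decarboxylase, stood at 0.23 and 0.24. Below 0 lay Acat2, the cytosolic acetoacetyl-CoA thiolase, at -0.59 and -0.45, and Ggps1 at -0.46 and -0.41. None of these 6 passed in the main test. Without number 1, Fdps passed under the miR-335-5p mimic (adjusted p = 0.0049, edgeR). The mouse has a close copy of Acat2, Acat3, and whether the counting divided reads between them was not tested. With the block Fdps, Acat2 and Ggps1 passed under both mimics and Mvk under the miR-335-5p mimic (adjusted p = 0.00724, 0.00103 and 0.00414 under the NT mimic and 0.00585 for Mvk, edgeR).

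The 3 enzymes of the squalene and lanosterol steps were not called in either day comparison. Sqle, the squalene epoxidase, is a flux-controlling step. At day 3 Sqle stood at 66.6, 39.7 and 45.4 CPM with the NT mimic and at 73.0, 46.0 and 46.6 CPM with the miR-335-5p mimic. Its day 6 values, in the same order, were 161, 68.2 and 61.2 CPM and 173, 86.5 and 78.5 CPM. Within each number Sqle was higher at day 6, but day 6 libraries 2 and 3 lay close to day 3 library 1 and the days overlapped. The log2 change was 0.94 ± 0.41 (SE, adjusted p = 0.0762) under the NT mimic and 1.03 ± 0.41 (adjusted p = 0.0543) under the miR-335-5p mimic in edgeR. With the replicate block Sqle rose by 0.84 (adjusted p = 1.80e-04, edgeR) and 0.97 (adjusted p = 5.63e-05, edgeR) on the log2 scale. Fdft1, squalene synthase, had 0.60 and 0.74, and Lss, lanosterol synthase, the next enzyme after Sqle, had -0.51 and -0.48. The blocked fit called Fdft1 higher and Lss lower under both mimics. Lss was also called lower under the NT mimic without day 6 library 1 (log2 -0.83, adjusted p = 0.00517, edgeR), and Sqle and Lss were called under both mimics without number 1.

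Of the 8 enzymes from lanosterol to cholesterol, 3 were called under each mimic, of which 1 fell and 2 rose. Cyp51, which removes the first methyl group of lanosterol, fell. At day 3 Cyp51 stood at 287, 221 and 180.1 CPM with the NT mimic and at 296, 239.9 and 183 CPM with the miR-335-5p mimic. The day 6 libraries of Cyp51 stood at 107, 54.2 and 39.8 CPM and at 124, 60.5 and 49.4 CPM for the same mimics. All 6 day 6 libraries lay below all 6 of day 3. The fall was 3.43-fold (adjusted p = 0.00369, edgeR) under the NT mimic and 3.08-fold (adjusted p = 0.00613, edgeR) under the miR-335-5p mimic. Leaving out 1 library ended the call in some fits without turning the direction. Under the NT mimic these were the fits without day 3 library 1 (adjusted p = 0.0135), day 6 library 2 (0.0187) and day 6 library 3 (0.0151). Under the miR-335-5p mimic they were those without day 3 library 1 (adjusted p = 0.0217), day 3 library 2 (0.0163), day 6 library 2 (0.0283) and day 6 library 3 (0.0254), and also the fit with no filter on low counts (0.0139), in edgeR throughout.

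Tm7sf2, a reductase acting directly on the product of Cyp51, went the other way. At day 3 Tm7sf2 stood at 3.75, 3.58 and 3.44 CPM with the NT mimic and at 5.37, 3.36 and 3.40 CPM with the miR-335-5p mimic. By day 6 its values were 15.5, 14.3 and 12.4 CPM with the NT mimic and 19.1, 15.0 and 12.9 CPM with the miR-335-5p mimic. The lowest day 6 library was above the highest day 3 library. The rise was 3.91-fold (adjusted p = 1.98e-05, edgeR) under the NT mimic and 3.87-fold (adjusted p = 2.09e-05, edgeR) under the miR-335-5p mimic, and it was called in every alternative. Lbr, which encodes an enzyme of the same activity, was in the list of other pathway genes, is named here after its values were seen and had log2 values of 0.075 and 0.082, with no call.

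Sc5d, a desaturase near the end of the route, rose as well. At day 3 Sc5d stood at 26.4, 26.5 and 23.9 CPM with the NT mimic and at 28.2, 25.5 and 26.7 CPM with the miR-335-5p mimic. Sc5d had 54.7, 50.2 and 39.9 CPM at day 6 with the NT mimic and 64.2, 59.7 and 47.5 CPM with the miR-335-5p mimic. The days did not overlap, and the rise was 1.88-fold (adjusted p = 2.01e-04, edgeR) and 2.13-fold (adjusted p = 5.87e-05, edgeR) under the NT and the miR-335-5p mimic, called in every alternative. The last enzyme, the reductase Dhcr7, had a larger log2 value, 1.07 ± 0.37 (SE), but a wider error and an adjusted p of 0.0325 in edgeR. Its 3 libraries stood at 33.6, 21.3 and 22.1 CPM at day 3 and at 78.6, 46.6 and 36.4 CPM at day 6 under the NT mimic. The isomerase Ebp stood at log2 0.63 and 0.72, the dehydrogenase Nsdhl at 0.35 and 0.37, the methyl oxidase Msmo1 at -0.031 and 0.06 and Hsd17b7 at -0.64 and -0.70. With the replicate block Ebp and Dhcr7 were called higher under both mimics (NT mimic, adjusted p = 7.12e-04 and 9.53e-06, edgeR), and Nsdhl, Msmo1 and Hsd17b7 were not called. Dhcr7 was also called by DESeq2 and without number 1, and Hsd17b7 was called lower without number 1 (log2 -1.23 and -1.24, adjusted p = 5.58e-05 and 5.14e-05, edgeR).

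**Figure D2:**
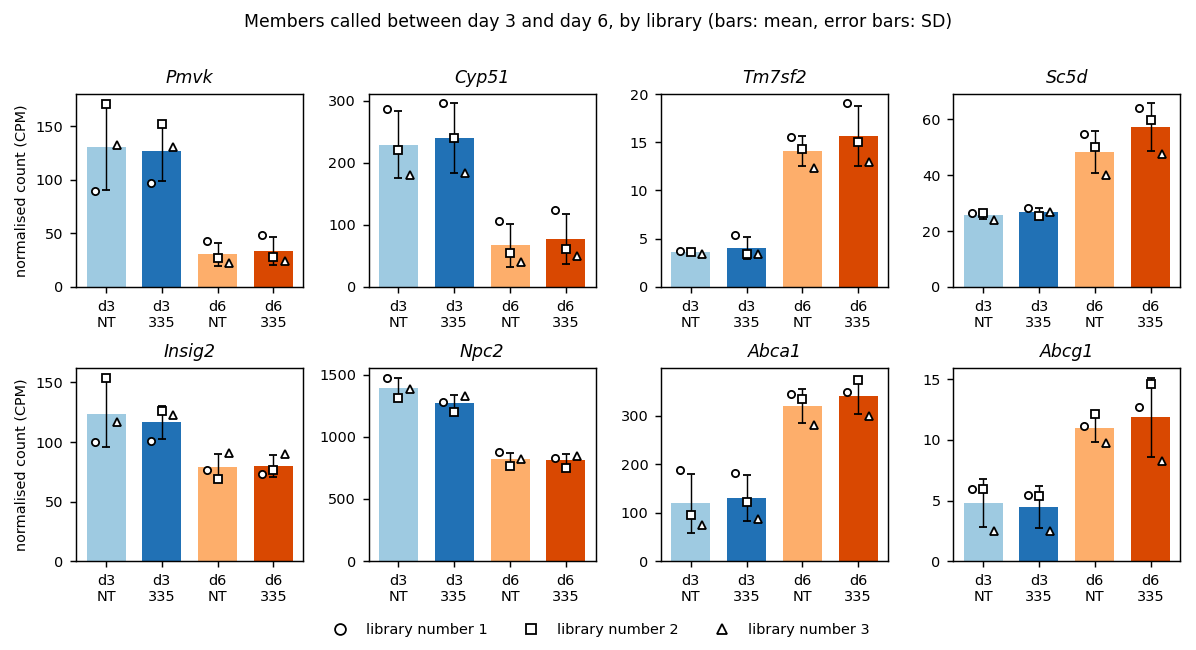
Normalised counts (CPM, y axis) of the 8 members called in a day comparison, in the 4 groups (x axis), with bars for the mean, error bars for the SD (n = 3) and a symbol for each library number. Pmvk, Cyp51, Insig2 and Npc2 are lower at day 6 and Tm7sf2, Sc5d, Abca1 and Abcg1 higher, with no overlap between the 6 libraries of each day.

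Of the 4 genes of the SREBP2 system, 1 was called, under the NT mimic. Srebf2, which encodes SREBP2, was not called. At day 3 Srebf2 stood at 172, 131 and 179.9 CPM with the NT mimic and at 189, 156 and 174 CPM with the miR-335-5p mimic. Its day 6 values, in the same order, were 228, 185 and 165 CPM and 228, 187 and 189 CPM. The days overlapped, and the log2 change was 0.26 ± 0.15 and 0.22 ± 0.15 (SE, adjusted p = 0.165 and 0.243, edgeR). Scap, the escort of SREBP2, stood at -0.26 and -0.22, not called in the main test and called lower with the block (adjusted p = 0.00393 and 0.00916, edgeR). Under the NT mimic Scap was also called by DESeq2 (adjusted p = 0.0091), without day 3 library 1 (0.00854) and without number 1 (0.00819, both edgeR). Transcript levels do not show how much SREBP2 was processed to its active form, which was not measured here.

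Of the INSIG genes, Insig2 was called under the NT mimic and Insig1 under neither. At day 3 Insig1 stood at 379.8, 229 and 177 CPM with the NT mimic and at 391, 273 and 194 CPM with the miR-335-5p mimic. The day 6 libraries of Insig1 stood at 483, 259 and 217 CPM and at 493, 315 and 269 CPM for the same mimics. The libraries of number 1 were the highest of every group and the days overlapped, with log2 changes of 0.29 ± 0.38 and 0.33 ± 0.38 (SE). Neither was called without the block, and with it Insig1 was called higher (log2 0.27 and 0.34, adjusted p = 0.00916 and 0.00256, edgeR). Insig2, the form whose transcription does not depend on SREBP2, fell instead. At day 3 Insig2 stood at 99.7, 154 and 117 CPM with the NT mimic and at 101, 126 and 123 CPM with the miR-335-5p mimic. By day 6 its values were 76.9, 69.3 and 91.2 CPM with the NT mimic and 73.1, 76.5 and 90.3 CPM with the miR-335-5p mimic. Every day 6 library lay below every day 3 library, by 1.56-fold on the fitted scale under the NT mimic (adjusted p = 0.00658, edgeR) and by 1.46-fold under the miR-335-5p mimic (adjusted p = 0.016, edgeR), the latter past the threshold only with the block, with the fit on its own 2 groups, with DESeq2 or at an adjusted p below 0.05. The call under the NT mimic was lost without day 3 library 2 (log2 -0.45, adjusted p = 0.0307), day 3 library 3 (adjusted p = 0.0117), day 6 library 1 (0.0193) or day 6 library 2 (0.0316), and in the fit of its 2 groups (0.0175, all edgeR).

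Among the 6 genes of sterol transport, the exporter Abca1 and the carrier Npc2 were called under both mimics. At day 3 Abca1 stood at 189, 94.9 and 73.9 CPM with the NT mimic and at 182, 123 and 86.1 CPM with the miR-335-5p mimic. Abca1 had 346, 336 and 281 CPM at day 6 with the NT mimic and 349.7, 374 and 299.5 CPM with the miR-335-5p mimic. All day 6 libraries were above all day 3 libraries. The rise of Abca1, which loads cholesterol onto apolipoprotein A-I, was 2.69-fold (adjusted p = 0.00385, edgeR) under the NT mimic and 2.62-fold (adjusted p = 0.00458, edgeR) under the miR-335-5p mimic. Under the NT mimic the call was lost without day 3 library 2 (adjusted p = 0.0201), day 3 library 3 (0.0157), day 6 library 1 (0.0109) or day 6 library 2 (0.0127). Under the miR-335-5p mimic the same 4 numbers, left out in turn, gave adjusted p of 0.0199, 0.0204, 0.0116 and 0.0161 in edgeR. At day 3 the library of number 1 stood above the others, and at day 6 the numbers lay close together.

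Abcg1, which exports cholesterol to HDL, was scarce. At day 3 Abcg1 stood at 5.97, 5.93 and 2.48 CPM with the NT mimic and at 5.48, 5.40 and 2.46 CPM with the miR-335-5p mimic. Its day 6 values, in the same order, were 11.2, 12.1 and 9.77 CPM and 12.7, 14.6 and 8.25 CPM. All day 6 libraries lay above those of day 3. The rise was 2.30-fold with an adjusted p of 0.0157 under the NT mimic, past the threshold, which was 0.01, only with the block, DESeq2 or a threshold of 0.05, and 2.67-fold with an adjusted p of 0.00689 under the miR-335-5p mimic in edgeR. The difference between these changes was not called (log2 0.21 ± 0.50, SE, unadjusted p = 0.678, edgeR). The call under the miR-335-5p mimic held in 1 of the 6 fits that left out 1 library, that without day 6 library 3. In the other 5 the adjusted p was 0.0113, 0.0141 and 0.0264 without day 3 library 1, 2 or 3 and 0.0173 and 0.0287 without day 6 library 1 or 2. It was 0.0292 without number 1 and 0.0113 in the fit of the 2 groups (all edgeR).

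Npc2, the soluble protein that hands cholesterol to NPC1 inside the lysosome, was the most abundant member per length, at 422 CPM for each kilobase of its longest annotated transcript at day 3 under the NT mimic. At day 3 Npc2 stood at 1476, 1309.8 and 1386 CPM with the NT mimic and at 1282, 1201 and 1331 CPM with the miR-335-5p mimic. The day 6 libraries of Npc2 stood at 874, 769 and 818 CPM and at 832, 751 and 847 CPM for the same mimics. No day 6 library reached the lowest of day 3. The fall was 1.70-fold (adjusted p = 4.63e-05, edgeR) under the NT mimic and 1.57-fold (adjusted p = 1.42e-04, edgeR) under the miR-335-5p mimic, called in every alternative. Its membrane partner Npc1 stood at log2 0.19 and 0.15 and was not called. Stard4, a cytosolic sterol carrier that SREBP2 induces, had 36.3 ± 8.12 CPM at day 3 and 81.4 ± 40.6 CPM at day 6 under the NT mimic (SD, n = 3). Its log2 changes were 1.16 ± 0.36 and 1.15 ± 0.36 (SE, adjusted p = 0.0201 and 0.021, edgeR), and the adjusted p was 1.07e-05 and 8.84e-06 with the replicate block. DESeq2 and the fit without number 1 called Stard4 as well. Its 6 libraries of day 6 all lay above those of day 3. Soat1, which esterifies cholesterol, stood at 0.094 and 0.09 and was not called with or without the block.

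Counted over the list, the 6 libraries of day 6 lay wholly above those of day 3 for 6 members, Mvk, Tm7sf2, Sc5d, Stard4, Abca1 and Abcg1, against 24.0% of all genes tested. They lay wholly below for Pmvk, Cyp51, Insig2 and Npc2, against 22.9% of all genes. The other 19 members overlapped between the days.

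Of 40 other genes of sterol biology listed beside the members, 39 were in the table and 37 were tested. Under the NT mimic 8 rose and 8 fell, and under the miR-335-5p mimic 7 rose and 8 fell. That is 43.2% and 40.5% of those tested, beside 35.6% and 34.7% of all genes. Nr1h3, which encodes the LXR alpha receptor that drives Abca1 and Abcg1, rose from 15.2 ± 2.45 to 85.8 ± 5.86 CPM under the NT mimic (SD, n = 3, adjusted p = 2.70e-07, edgeR). Nr1h2, the gene of the other LXR receptor, is named after its values were seen. It fell from 73.0 ± 5.26 to 59.1 ± 1.26 CPM under the NT mimic (SD, n = 3, adjusted p = 0.00577, edgeR). Lipa, the lysosomal acid lipase that frees cholesterol from its esters, rose by 1.14 on the log2 scale, and Erlin2, which forms a complex with Erlin1 in the ER membrane, by 0.50. Soat2, the second cholesterol acyltransferase, was at 0.0403 ± 0.0698 CPM at day 3, on hardly any count, and at 1.23 ± 0.347 CPM at day 6 (SD, n = 3, adjusted p = 2.72e-04, edgeR). Those that fell under the NT mimic were led by the sterol transfer protein Gramd1a (log2 -1.10), the ER scaffold protein Erlin1 (201 to 101 CPM on average), the pair Nus1 (-1.15) and Dhdds (-0.74), which together make dolichol precursors, the farnesyltransferase subunit Fntb (-0.67) and the lipoprotein receptor Lrp1 (-0.60).

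The spread between libraries of a group had a pattern that many members shared. In all 4 groups the library of number 1 was the highest for 14 of the 29 members (48.3%) and for 12 of the 19 synthesis enzymes (63.2%), against 14.6% of all genes tested. Beside the 12 enzymes these were Insig1 and Stard4. The library of number 1 was the lowest in all 4 groups for 1 member, Scap, against 14.0% of all genes. At day 6 under the NT mimic, number 1 stood at 2.57 times the mean of numbers 2 and 3 for Idi1, 2.49 times for Sqle, 2.44 times for Mvd and 2.27 times for Cyp51. At day 3 the same ratios were 1.18, 1.57, 1.24 and 1.43, so the gap was wider at day 6 for each of these 4. Srebf2 itself had a ratio of 1.31 at day 6 under the NT mimic, and the exporters Abca1 and Abcg1 had 1.12 and 1.02. Pmvk and Hsd17b7 were lowest in number 1 at day 3 and highest in number 1 at day 6 under both mimics. These are descriptions of 4 libraries that share a number whose meaning the labels do not give, and no test was made of them.

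The summed level of the 19 enzymes at day 6 was 2532 CPM in number 1, 1414 CPM in number 2 and 1161 CPM in number 3 under the NT mimic, and 2747, 1578 and 1341 CPM under the miR-335-5p mimic. At day 3 the sums were 2146, 1907 and 1634 CPM and 2188, 1973 and 1699.6 CPM in the same order. From day 3 to day 6 the sum thus went up in number 1 and down in numbers 2 and 3, under both mimics. Abundant enzymes weigh most in such a sum, and not every step fell in numbers 2 and 3. The mevalonate and the lanosterol-to-cholesterol sums fell in both numbers under both mimics. The squalene and lanosterol sum rose in number 2, from 175 to 195 CPM (NT mimic) and from 202 to 229 CPM (miR-335-5p mimic). In number 3 that sum went from 186 to 165 CPM and from 192 to 214 CPM. Some markers moved with number 1 too. The 8 adipocyte markers summed to 12774 and 13789.6 CPM in the day 6 libraries of number 1 and to 9732 to 10925 CPM in the other 4. The sum of 5 macrophage markers, led by Cd68, was 7.58 and 6.42 CPM against 1.97 to 2.37 CPM, with Adgre1 and Ptprc at or near 0. That of the 3 epithelial markers, led by Krt8 and Krt18, was 43.7 and 41.0 against 19.0 to 22.8 CPM, with Cdh1 at or near 0. The 6 fibroblast markers summed to 8208 and 7942 CPM in number 1 at day 6, within the 7672 to 10591.6 CPM of the others. Of them Pdgfra, named after its values were seen, stood at 202 and 183 CPM in number 1 and at 529.5 to 642 CPM in the others at day 6, and at 169 and 178 CPM against 260.1 to 346 CPM at day 3. At day 3 number 1 had macrophage sums of 1.42 and 1.17 CPM against 0.235 to 0.705 CPM and epithelial sums of 8.64 and 7.83 CPM against 1.75 to 3.30 CPM, while its adipocyte and fibroblast sums lay within the range of the others. Their part in the enzyme pattern was not tested.

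**Figure D3:**
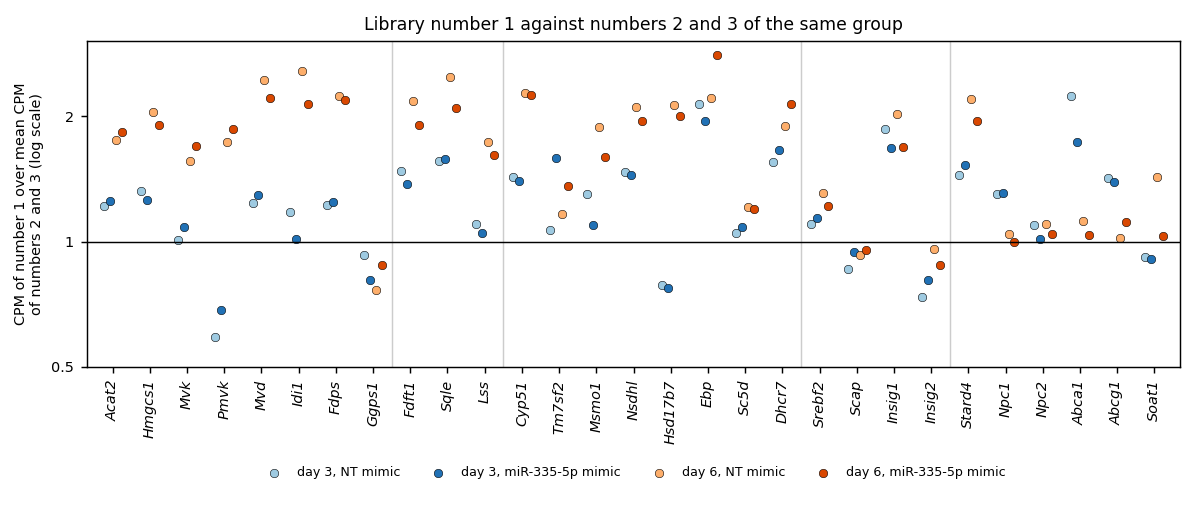
CPM of library number 1 over the mean CPM of numbers 2 and 3 of its group (y axis, log scale) for the 29 members (x axis, by role), with a colour for each of the 4 groups. Most enzymes lie above 1 in every group and many lie near 2 at day 6, whereas Ggps1, Scap and Insig2 lie below 1 in every group.

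The second comparison asked whether the miR-335-5p mimic changed the pathway. No member and no gene at all was called by edgeR at day 3 (0%) or at day 6 (0%), and DESeq2 also called 0, without a block. The paper, by contrast, reports genes that differed between the mimics on both days, from DESeq2 at a q below 0.01. Why the counts differ was not tested. At an unadjusted p below 0.05 edgeR had 59 genes at day 3 and 21 at day 6, and 0 members on either day. Both counts lie far below a share of 0.05 of the 11703 genes, the share expected with no effect. This fit counts the spread between library numbers as error. With a block within each day, 853 and 593 genes had an unadjusted p below 0.05 in edgeR. The values that follow are from the fit without a block. The lowest unadjusted p among members at day 3 were those of Npc2 (log2 -0.13 ± 0.09, SE, unadjusted p of 0.178), Scap (-0.07 ± 0.083, unadjusted p of 0.414) and Tm7sf2 (0.17 ± 0.21, unadjusted p of 0.438) in edgeR, with an adjusted p of 1 for each. At day 6 they were those of Sc5d (log2 0.24 ± 0.13, SE, unadjusted p of 0.0895), Tm7sf2 (0.16 ± 0.19, unadjusted p of 0.437) and Fdft1 (0.26 ± 0.35, unadjusted p of 0.473), with adjusted p of 0.99998. The missing calls do not show that the mimic left these genes alone. The 95% interval of Sqle at day 6 ran from -0.66 to 1.10 on the log2 scale, and that of Ebp, the widest, from -1.10 to 1.09.

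The directions were uneven. At day 6, 24 of the 29 members and 18 of the 19 enzymes had a higher estimate with the miR-335-5p mimic, with medians of 0.11 and 0.14 on the log2 scale, where the median over all genes was -0.0055. At day 3, 20 members and 15 enzymes were higher, with medians of 0.066 and 0.077. DESeq2 and RLE scaling gave 25 members higher at day 6 and 20 at day 3. In the 6 genes of transport and export the estimates split 3 and 3 on both days. Leaving out 1 library, and with it the balance of the numbers, turned these counts. At day 6 the count higher went to 5 without miR-335-5p mimic library 1 and to 8 without NT mimic library 3. At day 3 the count went to 10 without miR-335-5p mimic library 1 and to 12 without NT mimic library 3. Without all 4 libraries of number 1 it was 26 at day 6 and 18 at day 3. The members are not independent of each other, since many were high in the same libraries.

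Within pairs of the same number, all 3 pairs at day 6 were higher with the miR-335-5p mimic for 17 of 29 members and all 3 lower for 1, Scap, where all genes stood at 10.2% and 14.9%. At day 3 the counts were 9 higher and 2 lower, Npc2 and Abcg1, where all genes stood at 14.2% each. The median difference over the 29 members was 0.080, 0.11 and 0.17 in pairs 1, 2 and 3 at day 6 and 0.041, 0.061 and 0.035 at day 3. For Sqle the 3 differences at day 6 were 0.10, 0.34 and 0.36, for Fdft1 0.17, 0.24 and 0.49 and for Sc5d 0.23, 0.25 and 0.25 on the log2 scale. For Abca1 they were 0.016, 0.16 and 0.09.

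**Figure D4:**
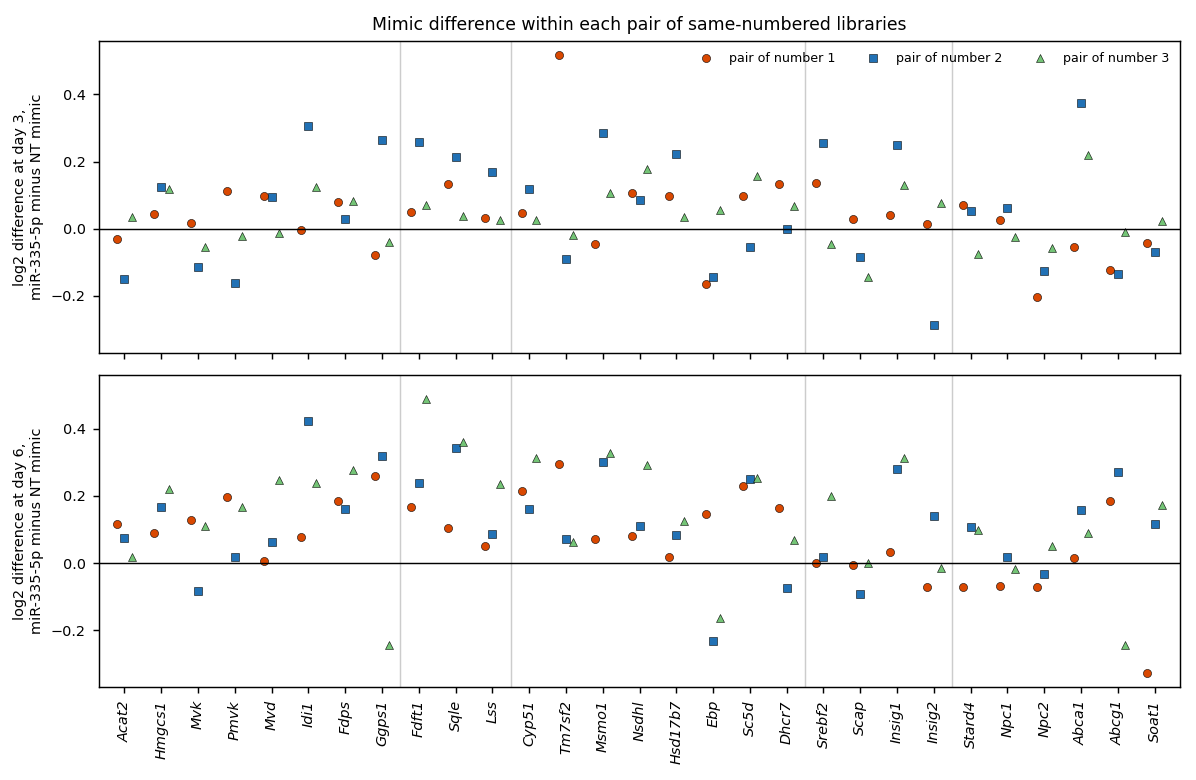
Log2 difference between the miR-335-5p and the NT mimic (y axis) within each pair of libraries of the same number, for the 29 members (x axis, by role), at day 3 (top) and day 6 (bottom). At day 6 the points of most synthesis enzymes lie above 0 in all 3 pairs, with the largest difference, 0.49, for Fdft1 in pair 3.

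With a replicate block within each day edgeR called 0 members, with 3 at day 3 and 10 at day 6 at an unadjusted p below 0.05. DESeq2, run with 1 block over all 12 libraries and not within each day, called 0. Over all genes the edgeR fit with the block within each day called 4 at day 3, all lower with the miR-335-5p mimic, and 0 at day 6. At day 6 the unadjusted 95% interval lay above 0 for 10 members and below 0 for none, where it lay above 0 for 1.90% of all genes. The 10, named after their values were seen, were the enzymes Hmgcs1, Idi1, Fdps, Fdft1, Sqle, Cyp51, Msmo1, Nsdhl and Sc5d, and Insig1. Fdft1 had the lowest adjusted p of them, 0.237 in edgeR, at a log2 value of 0.29 (0.16 to 0.42). For Sqle the blocked value was 0.26 (0.14 to 0.39) and for Insig1 0.21 (0.085 to 0.33). At day 3 the interval excluded 0 for 3 members, where it did so for 7.29% of all genes. These were Insig1 at 0.14 and Abca1 at 0.17, both higher, and Npc2 at -0.13, lower. These counts depended on how the block was fitted. With 1 block over all 12 libraries the interval lay above 0 at day 6 for 2 members, Sc5d (0.053 to 0.44) and Insig1 (0.035 to 0.38), where it did so for 0.393% of all genes, and at day 3 it lay above or below 0 for 0 members, where it lay above 0 for 0.957% and below 0 for 1.25% of all genes.

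The last comparison set the mimic effects of the days against each other. The difference between them was called for 0 members and 0% of all genes by edgeR, with 29 genes and 0 members at an unadjusted p below 0.05, and for 0 by DESeq2. The lowest unadjusted p among members were those of Sc5d (log2 0.18 ± 0.19, SE, unadjusted p of 0.365) and Npc2 (0.11 ± 0.13, unadjusted p of 0.401) in edgeR. In this fit, without a block, the interval of Sc5d ran from -0.23 to 0.59, which leaves room for a difference in either direction. With a replicate block within each day, 0 members and 0 genes were called in edgeR. At an unadjusted p below 0.05 stood 361 genes and 1 member. This member was an enzyme with its interval above 0, where 1.51% of all genes had such an interval. With 1 block over all 12 libraries the counts were 106 genes and 0 members.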

How the data were processed

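RNA of 12 3T3-L1 libraries (3 for each mimic and day) was sequenced. The authors deposited 1 table of expected counts per gene, made, by the submitters' processing notes, with RSEM 1.3.1, HISAT2 2.2.1 and the build mm39, whose roles are not stated. Of the values, 3.37% were not whole (tolerance 1e-06) and all were rounded. Totals of 17.69 to 18.94 (units of 1e+06) make 1 CPM worth 16.5 to 20.1 counts. Of 16414 gene identifiers, 16387 matched the annotation, and 0 sample columns went unused.

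Genes with enough counts for a group (filterByExpr, 11703) were scaled by TMM and fitted over the 4 groups in 1 model by edgeR's robust quasi-likelihood test (edgeR 4.0.16, limma 3.58.1, R 4.3.3). Tests were two-sided, with Benjamini-Hochberg adjusted p below 0.01 over all genes tested called. DESeq2 1.42.0, RLE scaling, no filter, only the groups compared, a threshold of 0.05, replicate blocks and leaving out each library were alternatives. Leaving out number 1 was added after seeing the data. The scripts were tested on simulated data.

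Same-numbered libraries deviated together from their group means (18 of 18 pairs above 0.1, r from 0.25 to 0.82, 0.49 to 0.82 within a day), and 12 of 12 libraries were closest to their own number. No label explains the numbers, so the pairing comes from the data.

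Every member is given by role, and values per library are given for members called between days and for Srebf2, Insig1, Hmgcs1 and Sqle. The 3 members of lowest p for each mimic comparison, the 2 for their difference and the 10 other pathway genes of lowest adjusted p are named. The members, the 40 other pathway genes and the marker lists (adipocyte, fibroblast, macrophage, endothelial, hepatocyte, epithelial) were chosen with earlier results of these data known. Hepatocyte markers summed to 0.151 to 1.12 CPM and endothelial markers to 0 to 0.959 CPM. Of the other pathway genes, Ch25h and Cyp27a1 had too few counts to be tested. Some genes of the pathway are not reported here.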

Additional observations from a re-analysis of the deposited data

How the results depend on the processing

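Of 812 alternative values of members in the day comparisons, 168 kept a call, 28 lost it and 0 turned a called member, and 82 gained a call. Tm7sf2, Sc5d, Pmvk and Npc2 were called under both mimics in every alternative run. Under the NT mimic the 7 members called became 11 with DESeq2, 19 with the replicate block (19 with DESeq2 and the block), 12 at an adjusted p below 0.05 and 13 without number 1, and 4 to 7 without a single library. Under the miR-335-5p mimic the 7 became 10 with DESeq2, 20 with the block (20 with DESeq2 and the block), 12 at 0.05 and 12 without number 1, and 4 to 6 without a single library. Calls over all genes moved as well. Of 11703 genes tested, 4163 and 4061 were called in the main test and 4905 and 4836 with DESeq2. With the block they were 6069 and 6042 (6128 and 6153 with DESeq2 and the block), and at 0.05 they were 5909 and 5926. Without number 1, 4994 and 5001 of 11705 genes were called. Without a single library the counts were 3135 to 3877 and 3077 to 3951. The common dispersion fell from 0.0278 to 0.00833 with the block. Some uncalled members changed sign, and the cause was not tested. Hmgcs1 under the NT mimic stood at -0.016 with the block and -0.021 with DESeq2 and the block. Without number 1, Hmgcs1 stood at -0.25 and -0.17 under the NT and the miR-335-5p mimic and Mvd at -0.24 and -0.13, while Soat1 stood at -0.16 under the NT mimic, Msmo1 at -0.17 under the miR-335-5p mimic and Tm7sf2, mimic against mimic at day 3, at -0.060. Leaving out single libraries under the NT mimic moved Hmgcs1 from -0.38 to 0.27, Mvd from -0.34 to 0.51, Idi1 from -0.0068 to 0.86, Msmo1 from -0.40 to 0.19, Nsdhl from -0.10 to 0.59, Insig1 from -0.14 to 0.65 and Soat1 from -0.099 to 0.19. Under the miR-335-5p mimic it moved Hmgcs1 from -0.28 to 0.30, Mvd from -0.25 to 0.47, Msmo1 from -0.20 to 0.24 and Nsdhl from -0.031 to 0.56. For the mimic comparison it moved Tm7sf2 from -0.090 to 0.29 at day 3 and from -0.0098 to 0.28 at day 6, and Fdft1 from -0.12 to 0.74 at day 6. Where that left 2 libraries in a group, the spread was pooled over the groups. At 16.5 to 20.1 counts for 1 CPM, Tm7sf2 and Abcg1 rest on the fewest counts among the called members.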
